A study of Drosophila melanogaster with 8 samples.

Results

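The cytoplasmic ribosome is built from ribosomal RNA and proteins of a large and a small subunit. The small subunit reads the mRNA, and the large subunit joins the amino acids. In animals the mRNAs of these proteins begin with a run of pyrimidines that places their translation under control of the TOR pathway, and in flies their genes start at a dedicated pyrimidine initiator. DENR works with its partner MCT-1 when small subunits are recycled and when translation restarts downstream of short upstream reading frames.

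The genes described here are those whose symbol is that of a cytoplasmic ribosomal protein (RpL, RpLP or RpS with a number) and Rack1, each with 1 probe set, the one of highest mean. They came to 40 genes of 17104 features, and 38 of them passed the filter on low signal. A further 52 genes of this naming in the RefSeq gene table were not analysed here. The 40 fell into 30 main forms, 18 of the large and 12 of the small subunit, and 10 genes that are either a second copy of a ribosomal protein gene or carry -like in the name. The rule uses the symbol, and the probe set of each gene was picked by its mean signal.

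The study used Drosophila S2 cells, a wildtype cultured line of embryonic origin with features of haemocytes (fly blood cells). All cells had received double-stranded RNA (dsRNA), either against DENR or, as control, against GFP. From each treatment total RNA and RNA carried by single ribosomes (80S) and by polysomes (called ribosome-bound RNA here) were put on Affymetrix arrays, which gives 4 groups of 2 arrays: GFP total, DENR total, GFP ribosome-bound and DENR ribosome-bound. Replicates are biological according to the submitters, with 2 per group, and all cells come from 1 line with no further allele given.

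Signals were log2 values from 0.83 to 12.88 (array medians 2.32 to 2.48). The DENR probe set read -3.40 ± 0.25 lower (log2 difference ± SE, n = 2 per group) in DENR than in GFP ribosome-bound RNA (adjusted p = 0.000203) and -0.74 ± 0.25 in total RNA (adjusted p = 0.170, not passed). All 10 haemocyte markers lay above the array median in every group. Their summed linear signal was 4305 to 5233 in GFP total, 3985 to 4439 in DENR total, 4666 to 5039 in GFP ribosome-bound and 3014 to 3097 in DENR ribosome-bound RNA, a sum carried by the brightest of them. On DENR dsRNA 4 of the 10 were called lower in total and in ribosome-bound RNA, where 0.702% and 0.692% of all tested features were. They were He (-2.85 and -2.59), Hml (-1.69 and -2.14), Sr-CI (-1.45 and -1.09) and NimC1 (-1.21 and -1.22). The other 6 did not pass in total or ribosome-bound RNA. Of the 10, 3 lay above 0 in total and 1 in ribosome-bound RNA. In total RNA the 3 were Pxn, with both DENR arrays above both GFP arrays, and crq and ush. For crq, DENR read 7.74 and 7.08 against 7.07 and 7.42 in GFP, and for ush 8.10 and 7.73 against 7.96 and 7.66. For crq and ush only the first DENR array lay above both GFP arrays. The part of these marker differences in the results below was not tested. The brightest of the muscle, neuron and fat body markers reached a mean of 4.08 in any group. Of 4 germline markers on the array 2 lay above the median, with aub the brightest. The first DENR total array stood apart from its mate, at -9.0 on the first principal component against -27.3. For total RNA, values without it are given below for some members only. Total RNA values of markers, gene lists and second probe sets include it. Signals are relative to other transcripts on an array, and fewer cells of a type and less RNA per cell cannot be told apart.

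The main forms sat near the top of the signal scale. All 30 had a mean log2 signal of at least 11, as had only 1.34% of the 10262 tested features. On single arrays they read between 10.24 and 12.79, where the highest signal of any probe set was 12.88, and whether signals this close to the top are compressed was not tested. Their differences on DENR dsRNA in ribosome-bound RNA stayed under 0.3 log2 units for 27 of the 30. The quartiles of these differences were -0.13 and -0.02 for main forms and -0.15 and 0.14 for all tested features. The other 10 genes were spread over the scale. RpL24-like, RpL7-like and RpLP0-like had means of 9.50, 9.12 and 7.24. RpS19b, RpS5b, RpS28a, RpS10a and RpL10Aa had means of 5.78, 5.44, 3.62, 3.24 and 2.55. RpL22-like read between 1.51 and 1.91 and RpS28-like between 1.83 and 2.02 on the 8 arrays, below every array median, and neither was tested. RpS5b, RpS19b, RpS10a and RpL22-like are known in flies mainly from the gonads.

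**Figure D1:**
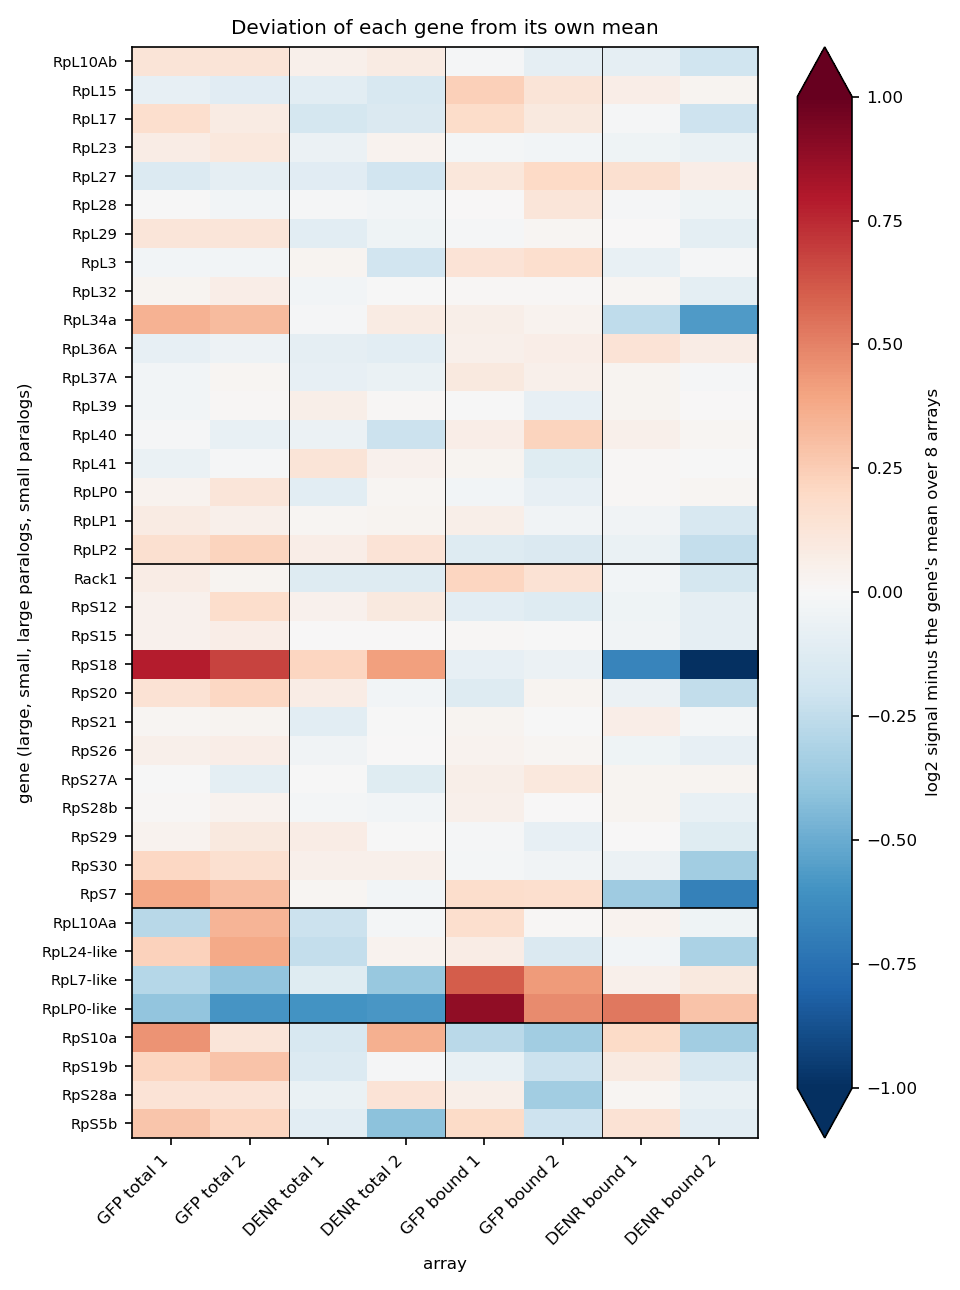
Heat map of the 38 tested genes (rows, large subunit, small subunit and then the paralogs and -like genes of each) on the 8 arrays (columns), as the log2 signal minus the gene's mean over all arrays, with colour ending at 1 unit. RpS18, RpS7 and RpL34a are darkest blue on the DENR ribosome-bound arrays. RpLP0-like is red on all ribosome-bound arrays and RpL7-like on those of GFP cells only, and most other rows are pale.

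The first comparison asked whether ribosomal protein mRNAs changed in total RNA on DENR dsRNA. None of the 38 tested members passed limma's test, where 1.58% of all tested features did, 0.877% higher and 0.702% lower. At an unadjusted p under 0.05, 4 members were lower and 0 higher, and among all features 5.99% were lower and 11.6% higher. The standard errors of members ran from 0.12 to 0.22, and 28 of the 30 main forms differed by less than 0.3. Quartiles of the difference were -0.13 and -0.04 for main forms and -0.15 and 0.21 for all tested features. The member of smallest p was RpS5b, a second copy of the gene for a protein of the small subunit. Its log2 signal was 5.73 and 5.66 on the GFP arrays and 5.34 and 5.03 on the DENR arrays. Both DENR arrays lay below both GFP arrays, with a difference of -0.50 ± 0.18 (SE, n = 2 per group, adjusted p = 0.178, not passed).

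RpL24-like, the counterpart of a yeast factor that holds the place of a ribosomal protein on precursors of the large subunit, read 9.73 and 9.88 in GFP cells and 9.26 and 9.54 in DENR cells. The groups did not overlap, and the difference was -0.41 ± 0.16 (adjusted p = 0.236). RpS7 read 12.10 and 12.02 in GFP and 11.73 and 11.68 in DENR cells, again without overlap, a difference of -0.35 ± 0.14 (adjusted p = 0.237). The highest values in the other direction were small. RpL41, the shortest ribosomal protein, differed by 0.12 ± 0.13, RpL7-like by 0.09 ± 0.14 and RpL39, a protein of the exit tunnel, by 0.04 ± 0.12, none past the test. Without the first DENR total array RpL7-like turned to -0.04, RpL41 was at 0.08, RpL39 at 0.02 and RpL24-like at -0.27.

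The members leaned to one side in the values as deposited. Of the 38, 35 had a difference below 0, against 47.4% of all features, with a median of -0.09 against 0.02 for all features. The arrays did not overlap, with DENR lower, for 24 of 38 members, where 21.5% of all features did so. For 1 member, RpL41, DENR lay higher without overlap, where 24.5% of all features did. The second DENR array alone was below the GFP mean for 35 members, with a median of -0.06, and the first, which stood apart, for 30, with a median of -0.10. This lean depended on how arrays were scaled. With cyclic loess only 16 of 38 members were below 0, the median was 0.03, and 11 were lower and 6 higher without overlap. With medians centred 26 members were below 0, and with quantile normalization within each fraction 24. The 107 other tested features with a mean of at least 11 had medians of -0.04 as deposited and 0.07 with cyclic loess. Their median was 0.008 with medians centred and 0.012 with quantile normalization within each fraction, where that of the members was -0.039 and -0.037. The members' median thus lay below that of these bright features under all 4 scalings, an offset that was not tested.

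**Figure D2:**
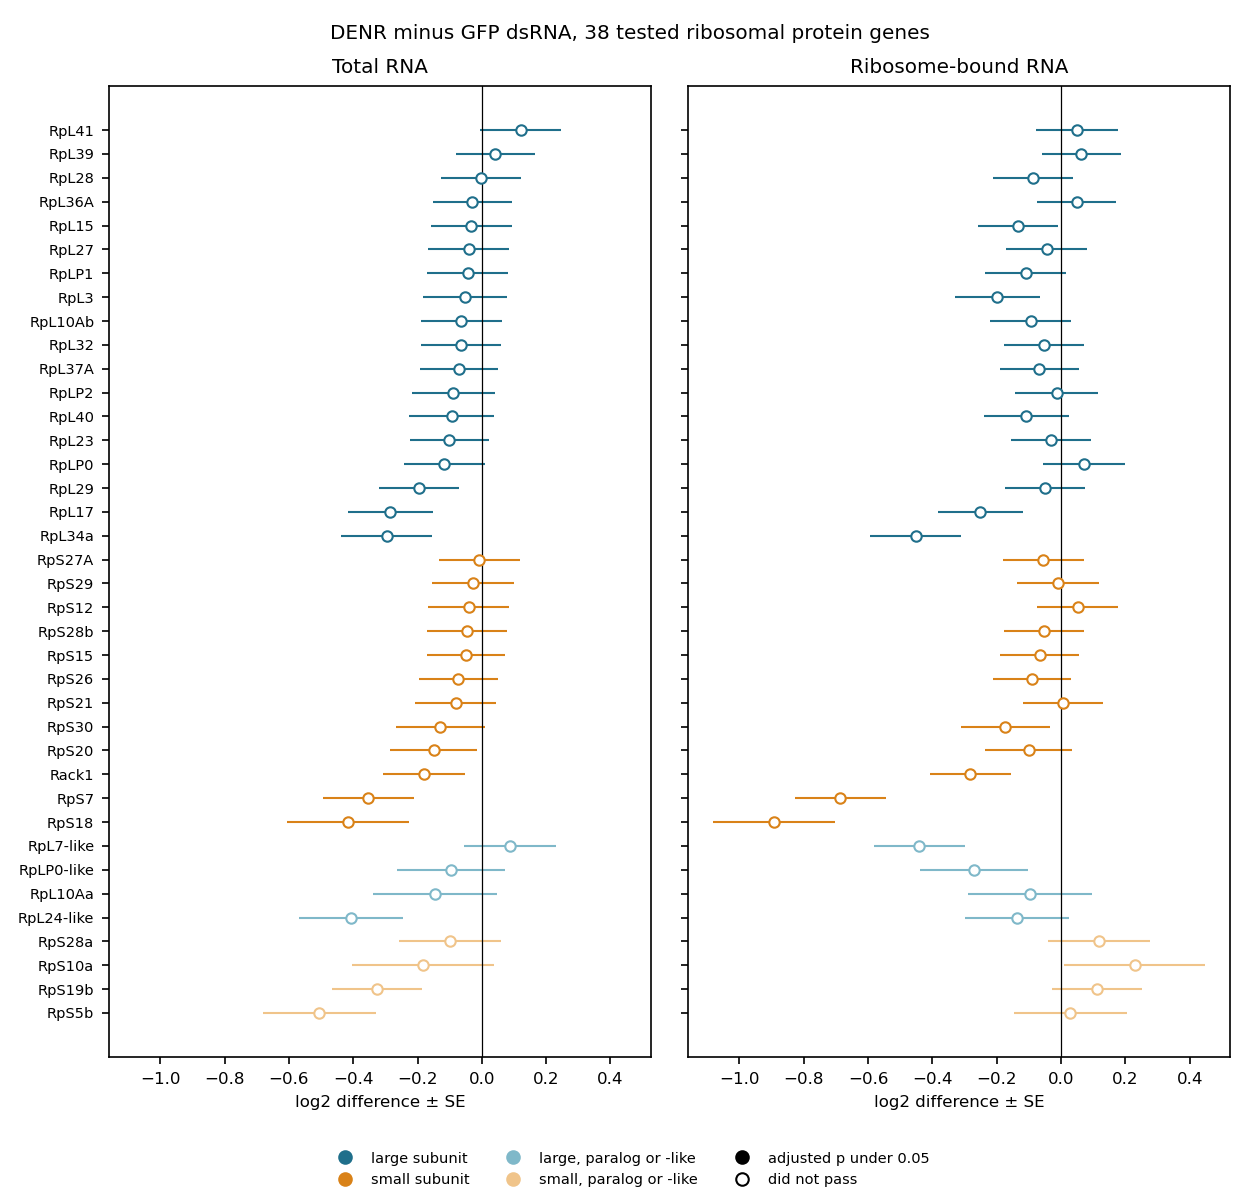
Log2 difference of DENR minus GFP dsRNA in total RNA (left) and ribosome-bound RNA (right) for the 38 tested genes, with bars for the standard error (n = 2 per group), coloured by subunit and kind. All points are open because no member passed the test, and RpS18 (-0.89) and RpS7 (-0.69) in ribosome-bound RNA lie farthest from 0.

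The second comparison asked the same of ribosome-bound RNA. RpS18 and RpS7, both proteins of the small subunit, lay lowest after DENR dsRNA, just short of the threshold, and no member passed. RpS18 read 11.43 and 11.45 on the GFP arrays and 10.86 and 10.24 on the DENR arrays. Both DENR arrays were lower, by a 1.86-fold difference of the means (-0.89 ± 0.19, SE, n = 2 per group, 95% interval -1.32 to -0.47, adjusted p = 0.0566). RpS7 read 11.88 on both GFP arrays and 11.35 and 11.04 on the DENR arrays. The groups did not overlap, and the difference was -0.69 ± 0.14 (95% interval -1.0 to -0.37, adjusted p = 0.0509). RpS18 passed in 7 and RpS7 in 9 of 20 alternative fits, with adjusted p between 0.00809 and 1.0 for RpS18 and between 0.00234 and 1.0 for RpS7. Without the second DENR ribosome-bound array, the lower one of both genes, the differences were -0.59 and -0.53.

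RpS7 has a second probe set, of mean 4.06, which differed by -0.06 ± 0.24 in ribosome-bound RNA. In total RNA it lay on the same side as the first, at -0.56 ± 0.24. RpL34a, a protein of the large subunit, read 11.23 and 11.20 in GFP and 10.92 and 10.61 in DENR ribosome-bound RNA. It too was lower on both DENR arrays, by -0.45 ± 0.14 (adjusted p = 0.193). The highest differences were those of the second copies RpS10a (0.23 ± 0.22), RpS19b (0.11 ± 0.14) and RpS28a (0.12 ± 0.16), all with overlapping arrays.

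In ribosome-bound RNA, 0 of 38 members were called, where 1.34% of all features were, 0.653% higher and 0.692% lower. At an unadjusted p under 0.05, 4 members were lower and 0 higher, against 6.77% and 6.38% of all features. The 4 were RpS18, RpS7, RpL34a and RpL7-like (-0.44 ± 0.14). Of the members 28 were below 0, against 50.6% of all features, and the median was -0.07 against 0.00. DENR lay lower without overlap for 18 members (23.8% of all features) and higher for 4 (23.3%). Here too the lean turned with the scaling. With cyclic loess the median was 0.02 with 18 of 38 below 0, and with quantile normalization within each fraction it was 0.01 with 17 below 0. The other features with a mean of at least 11 had a median of -0.08 as deposited, close to that of the members. RpS18 and RpS7 stayed below -0.5 under every scaling and in every fit with 1 array left out.

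**Figure D3:**
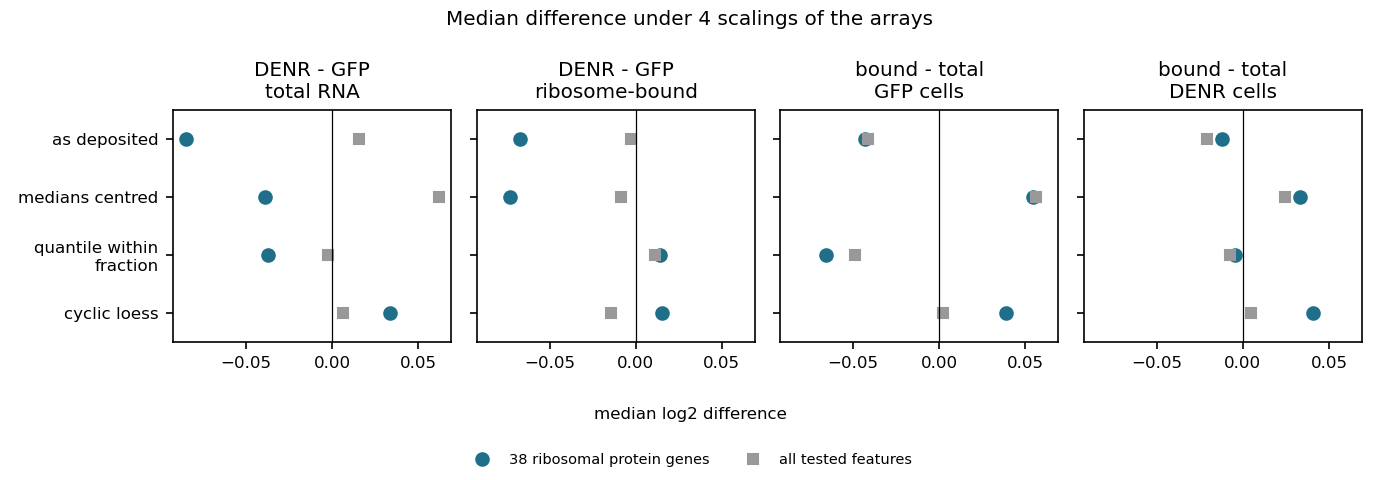
Median log2 difference of the 38 members (circles) and of all 10262 tested features (squares) in 4 comparisons (panels), for the values as deposited and for 3 other scalings of the arrays (rows). The members' median lies left of 0 in both DENR comparisons as deposited (-0.09 and -0.07) and right of 0 with cyclic loess (0.03 and 0.02).

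The probe sets of RpS30 and RpL3 disagreed too. RpS30, a small subunit protein made as a fusion with a ubiquitin-like protein, read 12.07 and 12.05 in GFP and 12.03 and 11.74 in DENR ribosome-bound RNA on its brightest set, a difference of -0.17 ± 0.14. Its second set, of mean 5.57, read 5.84 and 5.63 in GFP and 5.08 and 4.84 in DENR ribosome-bound RNA. There both DENR arrays lay lower, and the difference of -0.78 ± 0.15 passed when all probe sets were tested (adjusted p = 0.0418), while total RNA differed by -0.03 ± 0.15. RpL3, which reaches towards the peptidyl transferase centre, differed by -0.20 ± 0.13 in ribosome-bound RNA and -0.05 ± 0.13 in total RNA on its brightest set. Its second set, of mean 5.19, differed by -0.60 ± 0.13 (adjusted p = 0.0598) and -0.51 ± 0.13 (adjusted p = 0.0933). These second sets were looked at after their values were seen, and the sources used here do not say which transcripts they detect.

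None of the stalk proteins, Rack1 or the pairs of copies passed the test on DENR dsRNA, which does not show that they stayed unchanged. The 95% interval was -0.57 to 0.0021 for Rack1 in ribosome-bound RNA and -0.57 to 0.28 for RpL10Aa in total RNA. RpLP0, RpLP1 and RpLP2 form the stalk of the large subunit that recruits elongation factors. RpLP0 differed on DENR dsRNA by -0.12 ± 0.13 in total and 0.07 ± 0.13 in ribosome-bound RNA, RpLP1 by -0.04 ± 0.13 and -0.11 ± 0.13, and RpLP2 by -0.09 ± 0.13 and -0.01 ± 0.13. The 95% interval of RpLP1 in total RNA ran from -0.33 to 0.24. Without the first DENR total array RpLP0 was at -0.06 and RpLP2 at -0.05 in total RNA. Rack1, a scaffold protein on the head of the small subunit, read 11.41 and 11.37 in GFP total, 11.21 on both DENR total arrays, 11.56 and 11.48 in GFP ribosome-bound and 11.32 and 11.16 in DENR ribosome-bound RNA. It was lower on both DENR arrays of each fraction, by -0.18 ± 0.13 (adjusted p = 0.485) and -0.28 ± 0.13 (adjusted p = 0.384).

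Of the copies that are both members, RpL10Ab read between 12.06 and 12.39 and RpL10Aa between 2.28 and 2.89 on the 8 arrays, and RpS28b between 12.38 and 12.51 and RpS28a between 3.27 and 3.75. Levels of different probe sets are not comparable. None of these 4 genes passed any of the 5 comparisons. RpL10Ab differed by -0.06 ± 0.12 in total RNA and RpS28b by -0.05 ± 0.12, RpL10Aa by -0.15 ± 0.19 and RpS28a by -0.10 ± 0.16. Without the first DENR total array RpL10Aa was at -0.05 and RpS28a at -0.0013.

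The clearest differences among the members lay between ribosome-bound and total RNA. In GFP cells RpLP0-like and RpL7-like were higher in ribosome-bound RNA and RpS18 was lower. RpLP0-like is the counterpart of a yeast assembly factor that occupies the place of the stalk protein P0 on precursors of the large subunit. It read 6.85 and 6.65 in total and 8.13 and 7.71 in ribosome-bound RNA of GFP cells. Both ribosome-bound arrays were higher, a 2.25-fold difference (1.17 ± 0.17, SE, n = 2 per group, adjusted p = 0.000805). RpL7-like, the counterpart of a yeast factor needed in early assembly of the large subunit, read 8.84 and 8.72 in total and 9.72 and 9.54 in ribosome-bound RNA. It was 1.81-fold higher on ribosomes (0.85 ± 0.14, adjusted p = 0.00181). Both calls held in 19 of 20 alternative fits and were lost when a change of at least 1.5-fold was required (adjusted p = 0.0535 and 0.406).

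RpS18 read 12.30 and 12.19 in GFP total and 11.43 and 11.45 in GFP ribosome-bound RNA. It was lower on both ribosome-bound arrays, by a 1.74-fold difference (-0.80 ± 0.19, adjusted p = 0.0104). The call was lost when a change of at least 1.5-fold was required, and without the first GFP total array or either GFP ribosome-bound array. Differences ran from -0.86 to -0.70 over all alternatives. RpS18 has 1 probe set here. The second sets of 2 other small subunit genes were lower in ribosome-bound RNA of GFP cells where the brightest sets did not pass, with all probe sets tested. For RpS7 it differed by -0.81 ± 0.24 (adjusted p = 0.0380) against -0.18 ± 0.14, and for RpS29, whose second set has a mean of 12.23, by -0.54 ± 0.17 (adjusted p = 0.0482) against -0.11. RpLP2 (-0.33 ± 0.13, adjusted p = 0.0826), RpS10a (-0.59 ± 0.22, adjusted p = 0.0704) and RpS19b (-0.40 ± 0.14, adjusted p = 0.0571) were the next lowest in p and did not pass.

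Of the 38 members, 2 were higher and 1 lower in ribosome-bound RNA of GFP cells. Among all features 29.6% were called, 18.7% higher and 11.0% lower. The median of the members was -0.04, as was that of all features, and both moved above 0 with medians centred (0.05 and 0.06). The 30 main forms lay between -0.80 and 0.28 with a median of -0.04, and 28 of them within 0.3 log2 units of 0. Their quartiles were -0.17 and 0.08, and those of all tested features -0.26 and 0.32. The ribosome-bound arrays were higher without overlap for 11 members (31.3% of all features) and lower for 20 (33.9%). Of the members 24 were below 0, against 54.5% of all features.

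**Figure D4:**
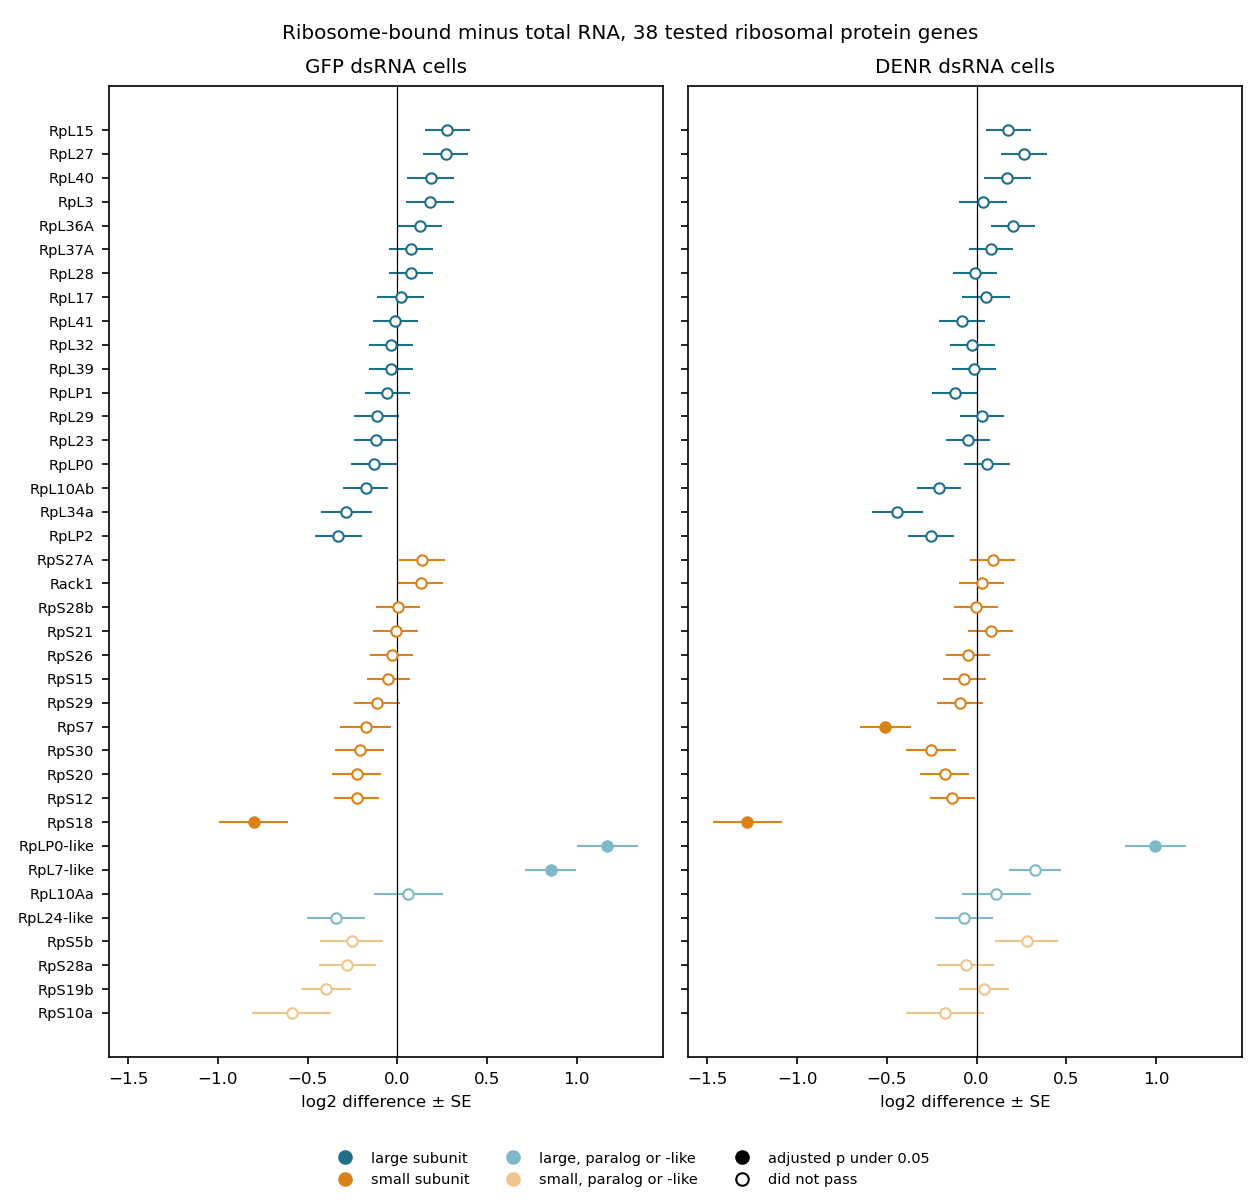
Log2 difference of ribosome-bound minus total RNA in GFP (left) and DENR (right) dsRNA cells for the 38 tested genes, with bars for the standard error (n = 2 per group). Filled points passed the test: RpLP0-like (1.17) and RpL7-like (0.85) to the right and RpS18 (-0.80) to the left in GFP cells, and RpLP0-like (1.0), RpS18 (-1.28) and RpS7 (-0.51) in DENR cells.

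After DENR dsRNA the same comparison called RpLP0-like higher and RpS18 and RpS7 lower, 3 of 38 members, where 15.0% of all features were called, 9.13% higher and 5.85% lower. RpLP0-like read 6.64 and 6.66 in total and 7.77 and 7.53 in ribosome-bound RNA, a difference of 1.0 ± 0.17 (adjusted p = 0.00382). RpS18 read 11.73 and 11.92 in total and 10.86 and 10.24 in ribosome-bound RNA. Both ribosome-bound arrays lay lower, by a 2.42-fold difference (-1.28 ± 0.19, adjusted p = 0.00204), and this call held in 19 of 20 alternative fits. RpS7, at 11.73 and 11.68 against 11.35 and 11.04, was lower by -0.51 ± 0.14 (adjusted p = 0.0377), and held the call in 10 of 20. It was lost without any 1 of the DENR total, DENR ribosome-bound and GFP ribosome-bound arrays. The call was also lost with the culture, assumed from treatment and replicate number, as a random block. It was lost too with medians centred, with a minimum of 1.5-fold and for the compared arrays alone. Its second probe set read -0.31 ± 0.24. With all probe sets tested, the second set of RpS30 was lower by -0.81 ± 0.15 (adjusted p = 0.00669), against -0.25 ± 0.14 for its brightest. RpL7-like, at 8.99 and 8.74 against 9.17 and 9.22, differed by 0.33 ± 0.14 (adjusted p = 0.168, not passed). The median of the members was -0.01 and that of all features -0.02. Ribosome-bound arrays lay higher without overlap for 8 members (27.1% of all features) and lower for 12 (28.7%), and 21 were below 0, against 53.4% of all features.

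**Figure D5:**
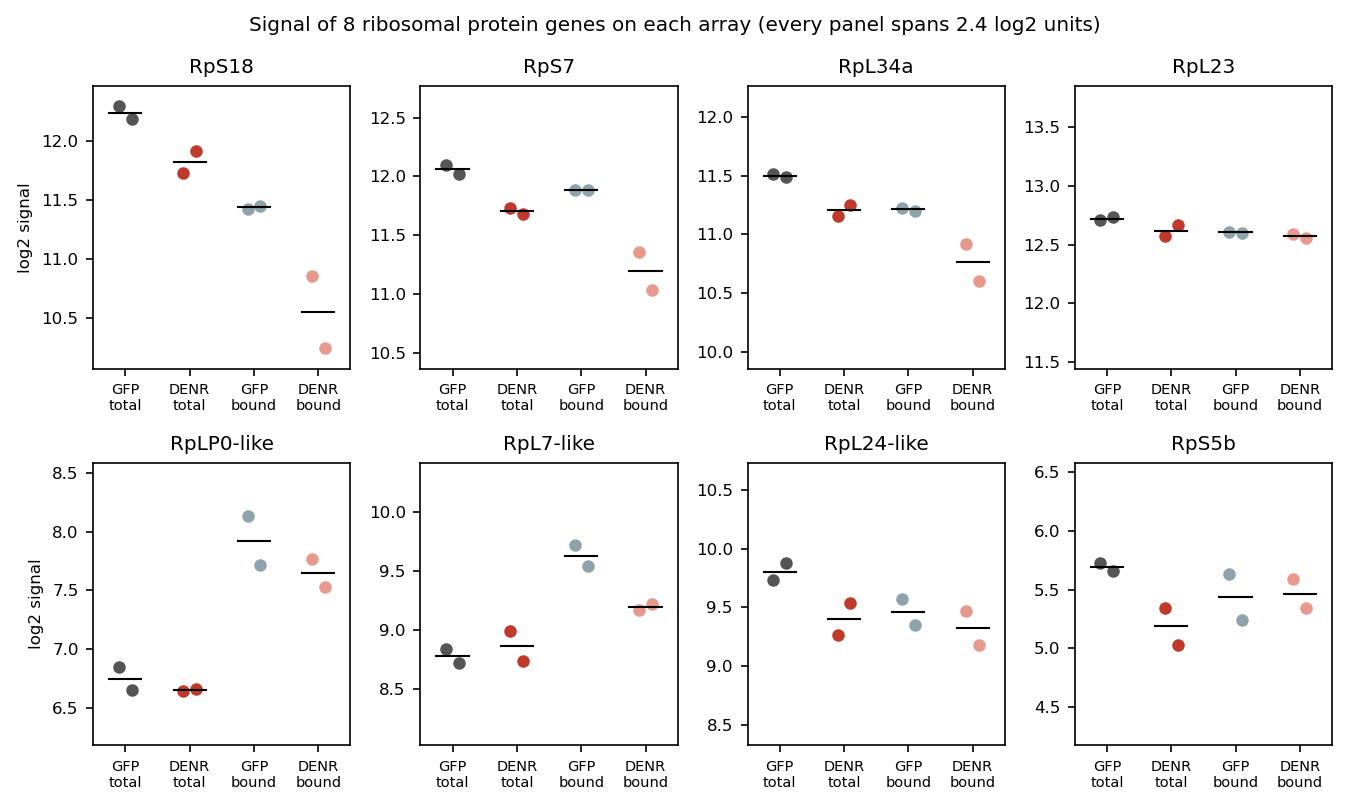
Log2 signal of 8 genes on each of the 8 arrays (points) with group means (lines), by treatment and fraction, every panel spanning 2.4 log2 units. RpS18 steps down from 12.30 and 12.19 in GFP total to 10.86 and 10.24 in DENR ribosome-bound RNA, RpL23 stays between 12.56 and 12.74, and RpLP0-like and RpL7-like are higher in both ribosome-bound groups.

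Ribosome loading, which compares the DENR effect on ribosome-bound RNA with its effect on total RNA, was tested as an interaction. Even the DENR probe set, at -2.66 ± 0.35, did not pass this limma test (adjusted p = 0.101). The standard errors of members ran from 0.17 to 0.31. A member that did not pass is therefore not shown to be unchanged. Of the 38 members 0 passed, as did 0% of all features by limma, and at an unadjusted p under 0.05 there was 1 lower member and 0 higher, against 6.71% and 3.24% of all features. That member was RpL7-like (-0.53 ± 0.20, SE, n = 2 per group, adjusted p = 0.480), whose excess in ribosome-bound RNA was 0.85 in GFP and 0.33 in DENR cells. RpS18 (-0.48 ± 0.27, adjusted p = 0.537) and RpS7 (-0.33 ± 0.20, adjusted p = 0.558) were next on the lower side. In total RNA RpS18 was also lower without overlap on DENR dsRNA, by -0.42 ± 0.19 (limma, adjusted p = 0.291, not passed), and RpS7 by -0.35 ± 0.14. So the fall of RpS18 and RpS7 in ribosome-bound RNA after DENR dsRNA was not shown to exceed that in total RNA. On the higher side were the second copies RpS19b (0.44 ± 0.20, adjusted p = 0.499), RpS5b (0.53 ± 0.25, adjusted p = 0.500) and RpS10a (0.41 ± 0.31, adjusted p = 0.641). Of the members 19 lay above and 19 below 0, where 52.6% of all features lay below, with a median of 0.00 against -0.02 for all features. Of the 8 tested second copies and -like genes 6 lay above 0 with a median of 0.24. This count and median include the first DENR total array, which stood apart, and how far they rest on it was not tested.

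Large and small subunit were then set side by side over the 30 main forms, as a description without a test. In total RNA on DENR dsRNA the 18 large subunit genes had a median of -0.06 and the 12 small subunit genes -0.08. In ribosome-bound RNA these medians were -0.06 and -0.08, and for loading 0.00 and -0.02. Small subunit genes lay below 0 in total RNA for 12 of 12 and large subunit genes for 16 of 18, where 47.4% of all features did. These 28 of 30 became 19 with medians centred, 17 with quantile normalization within each fraction and 9 with cyclic loess. Between ribosome-bound and total RNA the subunits differed somewhat more, with medians of -0.02 and -0.08 in GFP cells and 0.01 and -0.08 in DENR cells. The difference of large minus small medians was 0.06 and 0.09 there. Its spread between replicate arrays, 0.02 (SD), leaves out the spread between genes and does not say whether the subunits differ. In GFP cells the quartiles overlapped, at -0.12 and 0.11 for large and -0.21 and -0.01 for small subunit genes. With the second copies and -like genes included, 22 large and 16 small subunit genes, the medians in GFP cells were 0.00 and -0.19, a difference of 0.20, and in DENR cells the difference was 0.10. On DENR dsRNA in ribosome-bound RNA the difference then turned from 0.02 to -0.04. In GFP cells large subunit genes were higher on ribosome-bound arrays without overlap for 7 of 18 and lower for 7, small subunit genes for 2 of 12 and 8, where 31.3% of all features were higher and 33.9% lower.

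Genes that make or regulate ribosomes were taken from lists of known roles, chosen with earlier results of these data known. Of 35 ribosome assembly genes 27 were measured and tested. On DENR dsRNA 0 of them passed in total RNA (median -0.02) and 0 in ribosome-bound RNA (median -0.08). In GFP cells 11 were higher and 0 lower in ribosome-bound than in total RNA (median 0.23), and in DENR cells 6 were higher and 0 lower (median 0.18). Of all features 18.7% were higher and 11.0% lower in GFP cells, and 9.13% and 5.85% in DENR cells. Among the 11 were Mat89Ba (1.70), Nopp140, a nucleolar phosphoprotein (1.38), Tsr1, a factor of small subunit maturation (1.05), and NHP2, of the box H/ACA particles (0.68), all as log2 differences. Of the 3 members whose yeast counterparts are assembly factors, RpLP0-like and RpL7-like were called higher in GFP cells, and RpL24-like read -0.34 ± 0.16 (adjusted p = 0.142), lower without overlap.

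Of 24 regulators 19 were tested, with 0 called on DENR dsRNA in either fraction. In GFP cells 7 were higher and 2 lower in ribosome-bound RNA, and in DENR cells 5 and 4, against the same shares of all features. Tif-IA, an initiation factor of RNA polymerase I, was higher by 2.11 and Polr1B, a subunit of that enzyme, by 1.45. Akt and S6k, kinases of insulin and TOR signalling, were lower by -1.59 and -0.47. Of 5 tested elongation factors 2 were higher in ribosome-bound RNA of GFP cells, eEF1delta (1.97) and eEF5 (0.78), and 1, eEF1delta, in DENR cells (1.46). On DENR dsRNA 0 were called in total or ribosome-bound RNA, where 1.58% and 1.34% of all features were.

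Mitochondrial ribosomal proteins, the closest group by function, had 69 tested genes. In GFP cells 7 of them were higher and 20 lower in ribosome-bound RNA (median -0.25), against 2 and 1 of 38 cytoplasmic members (median -0.04) and 18.7% and 11.0% of all features. In DENR cells 6 were higher and 2 lower (median -0.04), where 9.13% and 5.85% of all features were. On DENR dsRNA 0 of the 69 were called in either fraction, with medians of -0.15 in total and 0.03 in ribosome-bound RNA. The total RNA median includes the first DENR total array, which stood apart. How far the median rests on that array was not tested. No test was made between the cytoplasmic and mitochondrial genes.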

How the data were processed

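The values deposited by the authors are log2 signals, 1 per probe set and array. Per the submitters' processing notes they come from RMA, with no version stated. The sources used here do not say whether the 8 arrays were normalized jointly. RNA was extracted with Trizol per the labels' protocols. Of 18952 probe sets, 183 controls were left out. Each gene with a single symbol was represented by its brightest probe set, leaving 17104 features, and the brightest 60% of these (10262, mean log2 of at least 2.12) were tested. All 40 member symbols are current in the RefSeq gene table (Release 6 assembly).

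A limma model (limma 3.58.1 under R 4.3.3) with the 4 group means was fitted to the 8 arrays, with empirical Bayes moderation (4 residual and 5.93 prior degrees of freedom). Two-sided p-values were Benjamini-Hochberg adjusted over the 10262 features and called under 0.05. Groups and replicate numbers came from the sample titles. The p-values measure the spread between these samples, pooled over the groups. Having 2 arrays per group limits the precision.

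Members and lists were chosen with earlier results of these data known. Named genes were those called in a comparison or, where none was called in a direction, the 3 of smallest p in it, with the stalk proteins, Rack1 and pairs of copies. RpS6, RpL22, sta and the planned start site motifs were not analysed here. Alternatives covered blocks by replicate number or culture, filters, probe set choice, 3 scalings, an intensity trend with robust prior, a minimum fold of 1.5, fits to the compared arrays alone, and leaving out each array. The culture was assumed to be shared by arrays of the same treatment and replicate number, which the labels do not state. Arrays paired in this way had a consensus correlation of -0.257. A crossed block was added after seeing the data. The fit was tested on simulated data. Deviations of same-numbered arrays, across genes, correlated within a fraction (r = 0.379 for total and 0.274 for ribosome-bound RNA) and ran opposite between fractions (r = -0.203 in GFP and -0.306 in DENR cells). Figures were drawn with matplotlib 3.10.9.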

Additional observations from a re-analysis of the deposited data

Results flagged for a closer look

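RpL36A is a large subunit protein at the exit site of tRNA. For RpLP0 and RpL36A DENR lay below GFP without overlap in total RNA and above it without overlap in ribosome-bound RNA. Among all features 21.5% lay lower in total and 23.3% higher in ribosome-bound RNA, and the share with both was not counted. For RpL36A the differences, -0.03 ± 0.12 and 0.05 ± 0.12, were smaller than their SE. RpLP0 read 11.81 and 11.90 in GFP and 11.68 and 11.80 in DENR total RNA, and 11.75 and 11.69 in GFP and 11.79 and 11.80 in DENR ribosome-bound RNA. The difference between the fractions was 0.19 ± 0.18 (SE, n = 2 per group) and did not pass limma's interaction test (adjusted p = 0.703). For RpL36A it was 0.078 ± 0.17 (adjusted p = 0.886), with 12.25 and 12.29 against 12.25 and 12.23 in total RNA and 12.39 and 12.41 against 12.48 and 12.41 in ribosome-bound RNA. Both were singled out after their values were seen.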

How the results depend on the processing

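The medians of members, which have no test, changed sign with the scaling. The median of members in total RNA on DENR dsRNA was -0.039 with array medians centred, -0.037 with quantile normalization within each fraction and 0.034 with cyclic loess, and the large minus small subunit difference was -0.028 with quantile normalization. In ribosome-bound RNA the median was 0.014 with quantile normalization and 0.015 with cyclic loess, and -0.106 to -0.023 with 1 array left out. The count of called members there, 0 in the reported fit, was 1 with the culture as a random block, with no filter, with the brightest 40%, with all probe sets and with quantile normalization, 3 under an intensity trend (robust prior), 2 in fits to the compared arrays alone, and 0 to 2 with 1 array left out. The loading median was -0.052 with medians centred and -0.045 to 0.042 with 1 array left out, and its large minus small difference 0.054 with quantile normalization. Between ribosome-bound and total RNA, the median was 0.054 with medians centred and 0.039 with cyclic loess in GFP cells, and 0.033 and 0.041 in DENR cells, where it was -0.058 to 0.040, and large minus small 0.056 to 0.10, with 1 array left out. The count of called members, 3 in each treatment, was 2 to 4 in GFP and 2 to 3 in DENR cells with 1 array left out, 2 in DENR cells with medians centred, under the culture block and for the compared arrays alone, 8 in each under an intensity trend, 0 in each with a minimum of 1.5-fold, and 5 in GFP cells with cyclic loess. The causes were not tested.

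With the replicate number as a block the counts were 0 in total RNA, 0 in ribosome-bound RNA, 0 for loading and 3 in each comparison of fractions, so the block changed no count. With the pairing crossed between fractions, added after seeing the data, the counts were 2 in ribosome-bound RNA, 7 between fractions in GFP cells and 4 in DENR cells, where RpL34a was gained.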
